A study of Mus musculus with 12 samples.

Results

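The 5 genes Sycp1, Sycp3, Hormad1, Stag3 and Majin build the meiotic chromosome axis, bridge paired axes or anchor chromosomes to the nuclear membrane. The genes were followed through 12 libraries of reduced representation bisulfite sequencing (RRBS), which reads methylated cytosines near MspI cut sites. They were chosen by name and found by Ensembl identifier, and are 5 of 30073 genes in the level files. Together they had 18 rows of a gene part (promoter, 5′ UTR, exons, introns or 3′ UTR), of 82535 such rows. Each of 6 groups had 2 libraries, all from C57BL6 mice. Embryonic stem cells (ESCs) came from a female line, and parthenogenetic ESCs (pESCs) from a line made of activated oocytes, which carries no paternal genome. By the study's methods both lines carry Actin-GFP, and each kind of stem cell stands for 1 line as far as the labels tell. Primordial germ cells (PGCs), the embryonic founders of eggs and sperm, were taken from embryos of day 9.5 or day 12.5 (E9.5 PGCs and E12.5 PGCs). PGC-like cells (ESC-PGCLCs and pESC-PGCLCs) were made from each kind of stem cell by 2 days as epiblast-like cells and then 4 days with BMP4, SCF, EGF and LIF. By the study's methods, PGCLCs were sorted as positive for the surface proteins SSEA1 and CD61. PGCs came from female embryos and were taken either by both proteins or by SSEA1 alone, and the sources do not say which was used for these libraries. Levels are the percentage of cytosines read as methylated, deposited without read numbers, which leaves the depth of each level unknown. A library held 144375 to 166476 features. The sources call the libraries of a group biological replicates but tie none to an animal or culture, so p-values measure the spread between libraries, which may be technical.

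In meiotic prophase each chromosome folds along a protein axis, and paired axes are joined by the synaptonemal complex. Germ cells keep many genes of this machinery methylated at their promoters until late in PGC development, and these promoters are known to lose that mark later than most of the genome. SYCP1 (gene Sycp1, ENSMUSG00000027855, chr3:102818499-102936100, minus strand, GENCODE M21 on mm10) forms the transverse filaments that bridge paired axes. SYCP3 (Sycp3, ENSMUSG00000020059, chr10:88459569-88473236, plus strand) is a structural part of the axis. HORMAD1 (Hormad1, ENSMUSG00000028109, chr3:95559677-95587671, plus strand) is an axis protein needed for double-strand breaks and pairing. STAG3 (Stag3, ENSMUSG00000036928, chr5:138280240-138312393, plus strand) is a subunit of meiotic cohesin, which holds sister chromatids at the axis. MAJIN (Majin, ENSMUSG00000024786, chr19:6184388-6224225, plus strand) sits in the inner nuclear membrane and attaches telomeres to it.

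The promoter sequences are shown because they carry the same short motifs in genes whose methylation differed. RefSeq promoter windows (GRCm38.p6, 250 bases before to 50 after the start) were given for 4 of the 5 genes, all but Majin. Each is printed on its own strand, 5′ to 3′, up to the first annotated transcript start. Capitals mark CACGTG, an E-box, and TCCCGC or its reverse complement GCGGGA, a part of the E2F consensus. No E-box overlapped a TCCCGC match.
Sycp1, chr3:102936101-102936350, minus strand: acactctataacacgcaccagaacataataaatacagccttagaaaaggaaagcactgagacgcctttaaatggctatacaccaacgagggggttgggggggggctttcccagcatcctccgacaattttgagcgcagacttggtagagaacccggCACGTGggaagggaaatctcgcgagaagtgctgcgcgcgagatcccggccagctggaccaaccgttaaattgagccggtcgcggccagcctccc
Sycp3, chr10:88459337-88459568, plus strand: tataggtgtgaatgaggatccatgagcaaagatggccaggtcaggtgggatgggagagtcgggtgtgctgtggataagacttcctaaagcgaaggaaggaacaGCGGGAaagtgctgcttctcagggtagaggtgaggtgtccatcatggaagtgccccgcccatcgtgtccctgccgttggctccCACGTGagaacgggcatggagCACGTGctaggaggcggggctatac
Hormad1, chr3:95559427-95559676, plus strand: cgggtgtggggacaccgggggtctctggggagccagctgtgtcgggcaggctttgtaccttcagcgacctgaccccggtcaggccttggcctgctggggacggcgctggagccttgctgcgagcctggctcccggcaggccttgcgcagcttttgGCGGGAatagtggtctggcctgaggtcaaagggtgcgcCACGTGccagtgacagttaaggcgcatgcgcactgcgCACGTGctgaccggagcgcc
Stag3, chr5:138280327-138280356, plus strand, cut to 30 bases because an annotated transcript of the gene starts before the window: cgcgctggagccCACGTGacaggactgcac

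All 4 windows held both motifs when both strands of all 300 bases were searched. Sycp3 and Hormad1 had 2 E-boxes each, and Sycp1 and Stag3 had 1. TCCCGC occurred once in each window, in Sycp1 at position 2 after the start and in Stag3 at position -2. Across the windows of 27025 genes, 7.24% held CACGTG, 20.02% held TCCCGC and 2.05% held both. These are matches of letters and say nothing of binding. The windows differed in CpG content, from 15 CpGs in Sycp3 and 21 in Sycp1 to 24 in Hormad1 and 30 in Stag3. MspI sites (CCGG), which decide what RRBS can read, numbered 5 in Hormad1, 3 in Sycp1, 1 in Sycp3 and 0 in Stag3. The promoter levels below may cover other stretches than these windows, since the sources do not give theirs. Stag3, with 0 sites in its window, still had a promoter level in all 12 libraries.

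Promoter methylation in E9.5 PGCs split the genes. The split uses the E9.5 values themselves, so it is a description without a test. Promoters at 20% or more in E9.5 PGCs were called methylated, and those under 10% in every group mean low throughout. Of 18456 promoters read in all libraries, 35.5% were methylated by this rule and 55.3% were low throughout. Of the 5 genes, 4 were methylated. The Hormad1 promoter was at 82.6% and 81.4% in E9.5 PGCs, above 96.4% of promoters. The Sycp1 promoter was at 73.4% and 72.0%, and the Sycp3 promoter at 57.1% and 57.7%. The Majin promoter, at 32.4% and 25.5%, was the one nearest to the 20% limit from above. Stag3 was the exception, with 8.77% and 8.26%, just inside the 10% limit. The order Hormad1, Sycp1, Sycp3, Majin, Stag3 held in both E9.5 libraries without overlap between neighbours.

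**Figure D1:**
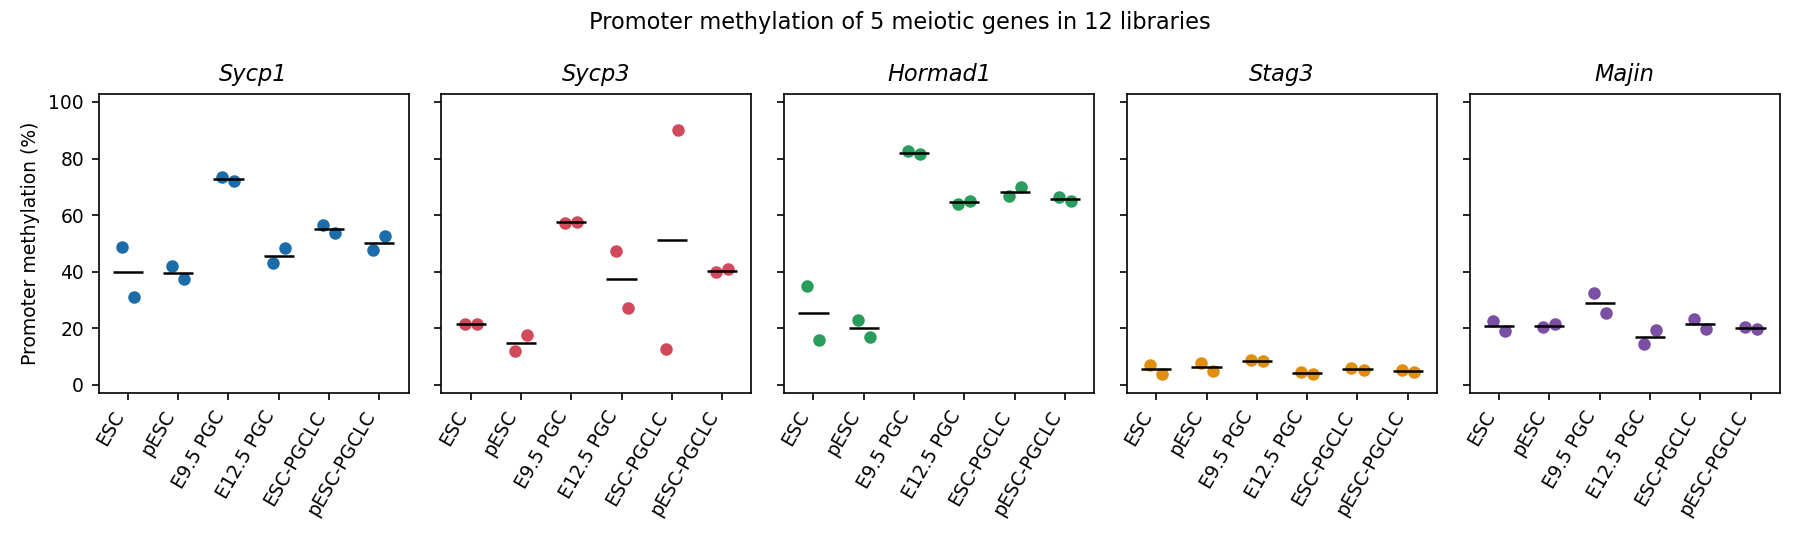
Promoter methylation (%, vertical axis) of the 5 genes in each library of the 6 groups (points), with the mean of the 2 libraries as a line. Hormad1 is at 25.3% in ESCs, at 82.0% in E9.5 PGCs and above 60% in E12.5 PGCs and both kinds of PGCLC, whereas Stag3 lies under 10% in every library.

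The other groups kept most of this order. In E12.5 PGCs the Hormad1 promoter was at 64.0% and 65.0%, Sycp1 at 43.1% and 48.3%, Sycp3 at 47.4% and 27.3%, Majin at 14.2% and 19.3%, and Stag3 at 4.35% and 3.70%. Sycp1 and Sycp3 overlapped there. ESCs had a different order, led by Sycp1 at 48.8% and 31.0%, with Hormad1 at 34.7% and 15.8%, Sycp3 at 21.4% and 21.6%, and Majin at 22.7% and 18.97%. Sycp1 overlapped Hormad1 in ESCs, and Hormad1, Sycp3 and Majin overlapped there too, whereas Stag3, at 6.84% and 3.90%, was below them all. The ESC libraries were the least alike over these genes: replicate 1 was higher than replicate 2 in 15 of 18 rows, with a median gap of 15.6 percentage points, against 1.05 points between the E9.5 libraries. The Sycp3 promoter had the widest gap of all, 12.5% and 90.0% in the ESC-PGCLC libraries, so its mean there describes neither library. Its 40% in pESC-PGCLC replicate 1 and 12% in pESC replicate 1 are round values too. Few reads can give such values, but the depth is unknown. The Sycp3 promoter was read with the same values as the Sycp3 5′ UTR in all 12 libraries, and the Sycp1 exon row matched its 5′ UTR, so 16 of the 18 rows were separate measurements.

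CpG islands and their shores (the flanking stretches) lay at all 5 gene starts and gave a further readout, also in mm10 coordinates. The Sycp1 island (chr3:102935375-102936230) reaches from 130 bases before the start to 725 after it, over the first exon and past its end. It was at 83.6% and 85.6% in E9.5 PGCs, whereas the ESC libraries had 31.9% and 12.7%. The Hormad1 island (chr3:95559527-95559728) was at 83.0% and 80.9% in E9.5 PGCs and at 23.6% and 4.44% in ESCs. For the Sycp3 island (chr10:88459495-88459991), which the annotated span of Chpt1 on the opposite strand also overlaps, the values were 74.0% and 72.4% in E9.5 PGCs and 54.5% and 27.2% in ESCs. The Majin island (chr19:6184251-6184665) had 53.8% and 67.3% in E9.5 PGCs against 27.8% and 0% in ESCs. Its 0% in ESC replicate 2 and its 50% and 37.5% in E12.5 PGCs are round values that may rest on few reads. These 4 islands were above 95.3% to 97.8% of 13715 islands read in all libraries, whose median in E9.5 PGCs was 2.10%. The Majin promoter level was identical to that of the shore before its island in all 12 libraries. The Sycp1 promoter matched the shore before its island in E12.5 replicate 1, at 43.1%, and in ESC-PGCLC replicate 2, at 53.6%. Shores therefore repeat promoter readings in part.

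The Stag3 island stayed nearly free of methylation. Its level (chr5:138279871-138280582) ran from 1.09% to 2.64% over the 12 libraries. The island also covers the start of Gpc2, a glypican gene on the opposite strand, 235 bases from the Stag3 start. Gpc2 had its own promoter row, at 32.1% and 33.8% in E9.5 PGCs and 12.8% and 4.95% in ESCs. Past the island the picture changed: the shore on the Stag3 side was at 77.7% and 76.0% in E9.5 PGCs, and at 35.1% and 10.9% in ESCs. The E9.5 libraries were thus far above the ESC libraries in that shore, with a difference of 53.9 points (adjusted p = 0.000874). The observed to expected CpG ratio was 0.967 in the Stag3 island, against 0.862 for Sycp1, 0.889 for Hormad1, 0.876 for Majin and 0.671 for Sycp3. The median over all islands was 0.879.

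**Figure D2:**
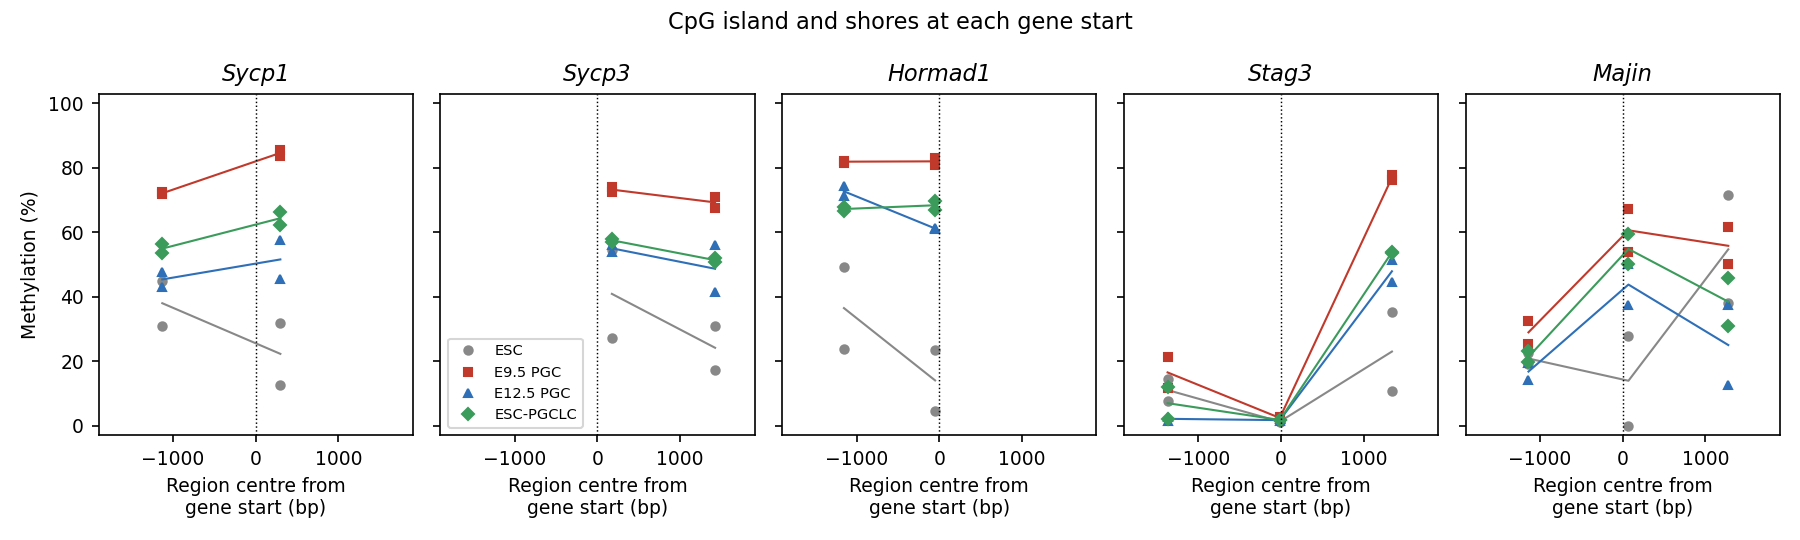
Methylation (%) of the CpG island and its shores at each gene start, by the distance of the region's centre from the start (bp, transcription to the right), in 4 groups; symbols are libraries and lines join group means. In E9.5 PGCs the islands of Sycp1, Sycp3, Hormad1 and Majin were above 50%, whereas the Stag3 island was at 2.64% and 2.14% between shores that reached 77.7% on the right.

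The first comparison asked what these genes lost between E9.5 and E12.5. Calls needed an adjusted p below 0.05 by limma and at least 10 percentage points between the group means. Of 18 rows, 15 could be tested, since the Hormad1 intron and the Sycp1 exon and 5′ UTR lacked a level in at least 1 library. The Sycp1 5′ UTR was at 90.1% and 96.4% in E9.5 PGCs and at 65.0% in the E12.5 library that read it, and the Hormad1 introns were at 79.3% and 74.5% against 48.6% and 55.3%. In E12.5 PGCs 10 of the 15 fell and none rose. Over all features 49.6% fell, and over promoters 32.2%. The median difference of the 15 rows was -20.1 points, and of all features -11.5. The Sycp1 promoter fell by 27.0 points (adjusted p = 0.000223) and its introns by 31.2 points. The Hormad1 promoter fell by 17.5 points (adjusted p = 0.000165). For the Majin promoter the drop of 12.2 points (adjusted p = 0.0113) rested on single libraries: without E12.5 replicate 1 the adjusted p was 0.0577, and without E9.5 replicate 1 it was 0.0585. The Sycp3 promoter differed by -20.1 points without a call (adjusted p = 0.613), and its introns fell by 19.4 points (adjusted p = 0.000444). The Stag3 promoter differed by -4.49 points (adjusted p = 0.000710), under the 10 points asked for, although the Stag3 introns fell from 73.5% ± 0.391 to 49.0% ± 2.41 (SD, n = 2). Along Majin the introns fell by 29.6 points, exons by 24.1 and 3′ UTR by 23.7.

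Levels over the whole table also moved, and the median level fell by 16.0 points between these stages. Measured against that shift, 3 of the 15 rows were called, all lower: the Sycp1 promoter at -11.03 points, the Sycp1 introns at -15.2 and the Majin introns at -13.6. By the same measure 46.3% of all features were called in either direction and 12.6% were called lower. Relative to the shift the Hormad1 promoter differed by -1.50 points, and the sign turned for the Majin promoter, at 3.83. The Stag3 promoter, at 8.51% in E9.5 PGCs, could not fall by 16.0 points, so its 11.5 was bound to be positive. As a share of the E9.5 level, the E12.5 level was 78.7% at the Hormad1 promoter, 65.0% at Sycp3, 62.8% at Sycp1 and 58.0% at Majin. The median share over 6554 methylated promoters was 63.5%, with quartiles of 56.7% and 69.5%. By these group means Hormad1 alone among the 4 was above the upper quartile. The Sycp3 share averages E12.5 libraries at 47.4% and 27.3%, against 57.4% in E9.5 PGCs, so its place is uncertain. Of the 12 islands and shores, 8 fell, where 18.6% of all islands and shores fell, and 6.43% of islands alone. The Majin shore that fell is the same reading as the Majin promoter. The Sycp1 island fell by 33.0 points, Hormad1 by 20.8 and Sycp3 by 18.2. The Stag3 island differed by -0.674 points (adjusted p = 0.0974), and the Majin island by -16.8 (adjusted p = 0.0602).

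The comparisons of PGCLCs with E9.5 PGCs share the E9.5 libraries with the one above, so their values are given side by side and are not separate evidence. In ESC-PGCLCs 8 of 15 rows were lower, where 29.6% of all features and 21.0% of promoters were lower. In pESC-PGCLCs 8 were also lower, where the shares were 40.2% and 27.3%. The median differences of the 15 rows were -10.7 and -17 points, and of all features -4.99 and -7.48. The Hormad1 promoter was at 66.9% and 69.8% in ESC-PGCLCs and at 66.5% and 64.9% in pESC-PGCLCs, which differed from E9.5 PGCs by -13.7 and -16.3 points. The Sycp1 promoter was at 56.5% and 53.6% in ESC-PGCLCs and at 47.8% and 52.6% in pESC-PGCLCs, with differences of -17.6 points (adjusted p = 0.00272) and -22.5 points (adjusted p = 0.000760). The Sycp1 introns had the widest differences of the 15 rows, -39.8 points in ESC-PGCLCs and -39.4 in pESC-PGCLCs. Introns of Sycp3, Stag3 and Majin were lower in both kinds of PGCLC too, with differences between -17.2 and -26.6 points. The Stag3 promoter differed by -3.06 and -3.56 points and the Majin promoter by -7.59 and -8.86, all without a call. Against the shift of the median, which was -10.1 points in ESC-PGCLCs and -12.1 in pESC-PGCLCs, 2 and 3 rows were called, all lower. The Majin promoter turned positive in both. So did Stag3, whose level of 8.51% in E9.5 PGCs left no room to fall that far. Of all features 21.6% and 35.7% were then called in either direction, and 4.44% and 8.46% lower.

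**Figure D3:**
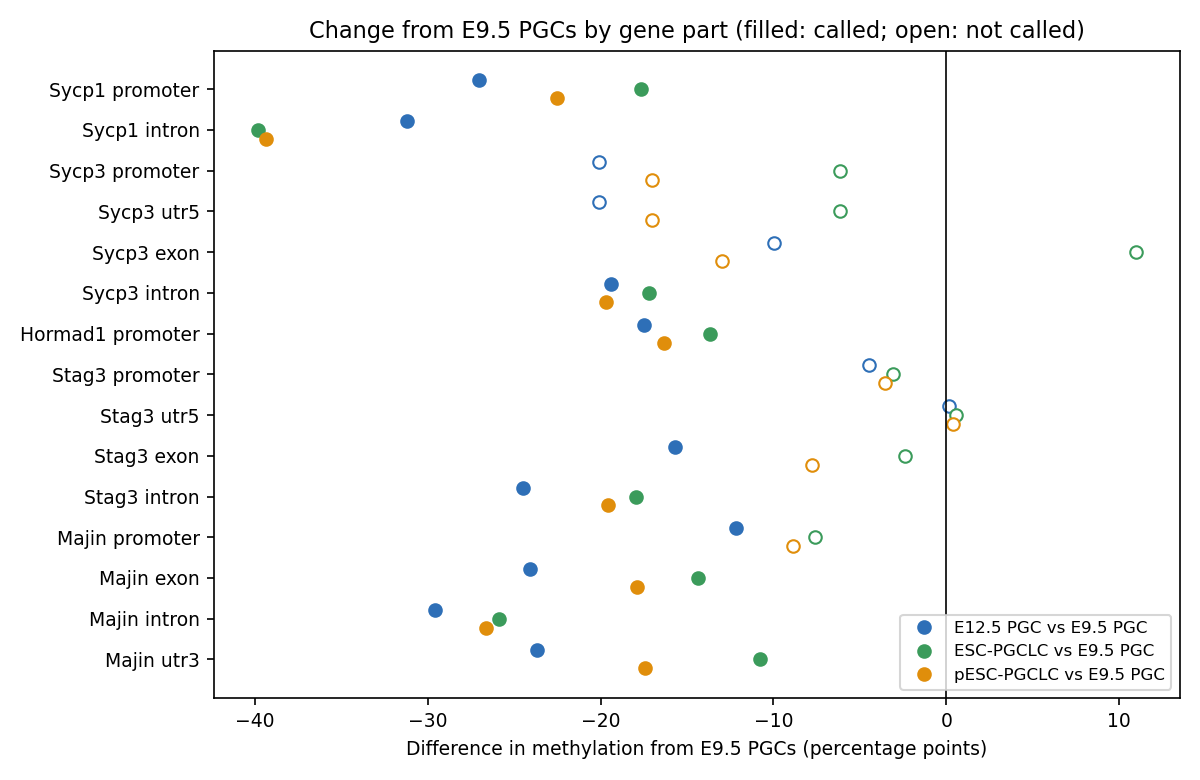
Difference in methylation from E9.5 PGCs (percentage points, horizontal axis) for the 15 testable rows, in E12.5 PGCs (blue), ESC-PGCLCs (green) and pESC-PGCLCs (orange); filled points were called. Called points all lie below 0, from -39.8 at the Sycp1 introns in ESC-PGCLCs to -10.7 at the Majin 3′ UTR, and the Stag3 promoter and 5′ UTR stay within 5 points of 0.

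Between PGCLCs and E12.5 PGCs few rows differed. In ESC-PGCLCs 2 of 15 rows were higher, where 22.2% of all features and 13.9% of promoters were higher. These were the Stag3 exons, by 13.3 points (adjusted p = 0.00469), and the Majin 3′ UTR, by 12.9 points (adjusted p = 0.00391). None of the promoters was called: Sycp1 was higher by 9.37 points (adjusted p = 0.0413), short of 10 points, and Hormad1 by 3.79 (adjusted p = 0.155). The count depended on single libraries, being 4 without E12.5 replicate 2, 4 without ESC-PGCLC replicate 1 and 6, of which 4 were higher and 2 lower, without ESC-PGCLC replicate 2, while leaving out 1 library put 17.8% to 21.6% of all features higher. Against the shift of the median, of 5.88 points, the 2 calls were lost and the Sycp1 introns were called lower, at -14.5 points, where 5.97% of all features were called and 1.37% lower. In pESC-PGCLCs limma called 0 of 15 rows against E12.5 PGCs, with 3 at an unadjusted p under 0.05, where 7.1% of all features were called. Its smallest adjusted p, 0.0435, belonged to the Stag3 exons, with a difference of 7.91 points.

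The origin of the PGCLCs left no called difference in these genes. Between pESC-PGCLCs and ESC-PGCLCs limma called 0 of 15 rows, with 2 at an unadjusted p under 0.05, and 0.0948% of all features. With so small a share, 0 of 15 says little of these genes. In pESC-PGCLCs 14 of the 15 rows were lower, with a median difference of -2.62 points, against -0.953 over all features. Of the 12 islands and shores, none called, 8 were lower and 4 higher. Among the higher was the shore before the Hormad1 island, by 11.8 points (adjusted p = 0.0786). The Hormad1 promoter differed by -2.62 points (adjusted p = 0.464) and Sycp1 by -4.87 (adjusted p = 0.383). Without ESC-PGCLC replicate 2 the Sycp3 exons were called, at -39.9 points, where replicate 1 stood at 91.2% and replicate 2 at 59.3%. Between pESCs and ESCs limma called 0 of 18 rows, with 0 at an unadjusted p under 0.05, and 0.0% of all features. With 2 libraries per group and ESC libraries a median of 15.6 points apart over these rows, this test had little power. The lack of calls therefore does not show equal levels. The pESC libraries had 23.0% and 17.0% at the Hormad1 promoter, 41.9% and 37.3% at Sycp1, 12% and 17.4% at Sycp3, 7.50% and 4.88% at Stag3, and 20.5% and 21.3% at Majin. The ranges of pESCs and ESCs overlapped at Hormad1, Sycp1, Stag3 and Majin. At Sycp3 both pESC libraries were lower, without a call (-6.83 points, limma, unadjusted p = 0.110). How many of all features lack overlap was not counted, so the Sycp3 values are only a description. The test of whether PGCLCs differed from their stem cells by origin called 0 of 15 rows, with 0 at an unadjusted p under 0.05. It called 0.0365% of all features and has the same limit, since it uses the same ESC libraries.

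PGCLCs were sorted and grown in another medium than the stem cells, so the part of induction alone was not tested. The Hormad1 promoter was higher in both kinds of PGCLC than in the stem cells of the same origin. It was higher by 43.1 points in ESC-PGCLCs than in ESCs (adjusted p = 0.00560) and by 45.7 points in pESC-PGCLCs than in pESCs (adjusted p = 0.00557), and the PGCLC libraries did not overlap the stem cell libraries. In ESC-PGCLCs 2 of 15 rows rose, where 13.7% of all features and 12.1% of promoters rose. The other row was the Sycp3 exons, by 46.4 points (adjusted p = 0.0486), a call lost without ESC replicate 2 (adjusted p = 0.214), without ESC-PGCLC replicate 1 (0.190), and without any 1 of the pESC or pESC-PGCLC libraries (0.0694 to 0.0788). Without ESC replicate 1, 7 rows rose, where 25.2% of all features rose, among them the Sycp1 promoter by 24.1 points (adjusted p = 0.00764). In pESC-PGCLCs 1 of 15 rows rose, where 8.91% of all features and 8.55% of promoters rose. Leaving out either ESC library gave 2, and either ESC-PGCLC library 3, with 5.17% to 13.0% of all features higher when 1 library was left out. The Sycp1 island rose as well, by 42.1 points from ESCs (adjusted p = 0.0161) and by 37.4 points from pESCs (adjusted p = 0.0357). The Stag3 and Majin promoters differed from their stem cells by -1.24 to 0.532 points. Against the shift of the median, of 12.8 points from ESCs, the rows called were 1 higher, Hormad1 by 30.3 points, and 4 lower, where 5.2% of all features were higher and 46.9% lower. From pESCs, with a shift of 10.03 points, they were 1 higher, Hormad1 by 35.7 points, and 3 lower, where the shares were 4.34% and 28.9%.

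E9.5 PGCs were more methylated than ESCs in 7 of 15 rows and less in none, where 42.1% of all features and 30.8% of promoters were higher. The median difference was 32.8 points over the 15 rows and 7.49 over all features. The Hormad1 promoter was higher by 56.7 points (adjusted p = 5.37e-05), a gain above that of 97.9% of promoters, and Sycp1 by 32.8 points (adjusted p = 0.000630). Introns of Sycp1, Sycp3, Stag3 and Majin were higher by 52.1, 36.3, 35.0 and 31.8 points. The Sycp3 promoter difference of 35.9 points was not called (adjusted p = 0.223), but was called without ESC-PGCLC replicate 1 (0.00143), without ESC-PGCLC replicate 2 (0.00149) and in a fit of the ESC and E9.5 libraries alone (0.00338). That fit called 11 of 18 rows, all higher, where 30.7% of all features were higher, among them the Sycp1 5′ UTR at 70.8 points. The islands of Sycp1, Hormad1, Sycp3 and Majin were higher by 62.3, 67.9, 32.3 and 46.7 points, where 9.05% of islands were. Against the shift of the median, of 22.3 points, 2 rows were called higher, the Hormad1 promoter by 34.4 points and the Sycp1 introns by 29.8, and 3 lower, where 8.47% of all features were higher and 54.5% lower. E12.5 PGCs and ESCs differed less. The Hormad1 promoter was higher by 39.3 points (adjusted p = 0.00182) and the Sycp1 introns by 20.95 points (adjusted p = 0.0296), whereas the Stag3 exons were lower, at -14.5 points (adjusted p = 0.0108), where 10.2% of all features were higher and 6.99% lower. Without ESC replicate 1, 6 rows were called, and 1, the Hormad1 promoter, without E12.5 replicate 2, and 11.4% to 26.0% of all features were called when 1 library was left out. Against the shift of the median, of 7.29 points, 1 row was higher and 4 were lower, where 5.58% of all features were higher and 26.8% lower.

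Promoters of other meiotic genes fell into the same classes. Of 39 listed, 28 had a promoter level and 23 had one in all 12 libraries. In E9.5 PGCs 10 of the 23 were methylated, 12 were low throughout and 1, Meiosin, was between. This split is near that of all promoters, of which 35.5% were methylated and 55.3% low throughout. Of the 5 other axis and cohesin genes, 3 had a level in all libraries and were methylated: Sycp2, an axis partner of SYCP3, was at 73.3%, Hormad2 at 46.5% and the meiotic kleisin gene Rad21l at 36.0%. The meiotic cohesin gene Smc1b, missing from 1 ESC-PGCLC library, was lower, at 12.6% and 14.1% in E9.5 PGCs. Of the 5 genes of the central region of the synaptonemal complex, Syce2 at 4.67% and Six6os1 at 4.44% were read in all libraries and were low. Syce3, read in 6 libraries, was at 67.5% in the E9.5 library that had it and at 40.9% and 16% in ESCs. Among 11 recombination genes 4 were methylated, led by Rec114, needed for break formation, at 78.2% and Msh4, a crossover gene, at 71.7%. The lowest was Prdm9, which places recombination hotspots, at 1.41%. Of 3 genes of meiotic entry 2 were methylated, Meioc at 69.5% and Dazl at 65.8%. Of 4 telomere attachment genes, Kash5 was at 50.2%, whereas Sun1 was at 8.22% and Spdya at 1.74%.

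From E9.5 to E12.5, 9 of the 23 fell and none rose, against 32.2% of promoters. The 9 were Sycp2, Hormad2, Rad21l, Rec114, Msh4, Msh5, Meioc, Dazl and Kash5. Compared with ESCs, 10 of 23 were higher in E9.5 PGCs, where 30.8% of promoters were, with Msh4 up by 69.2 points and Sycp2 by 60.3, against 56.7 at the Hormad1 promoter. Msh4 stood at 2.71% and 2.21% in ESCs. Against E9.5 PGCs, 6 of the 23 were lower in ESC-PGCLCs and 7 in pESC-PGCLCs, near the 21.0% and 27.3% of promoters that were lower. Against E12.5 PGCs, Kash5 alone was higher in ESC-PGCLCs, by 14.5 points (adjusted p = 0.0129), where 13.9% of promoters were higher. RefSeq windows matched 21 of the 23 genes. CACGTG occurred in 1 of 9 methylated promoters, Rec114, and in 1 of 12 low ones, and TCCCGC in 3 of 9 and 9 of 12.

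**Figure D4:**
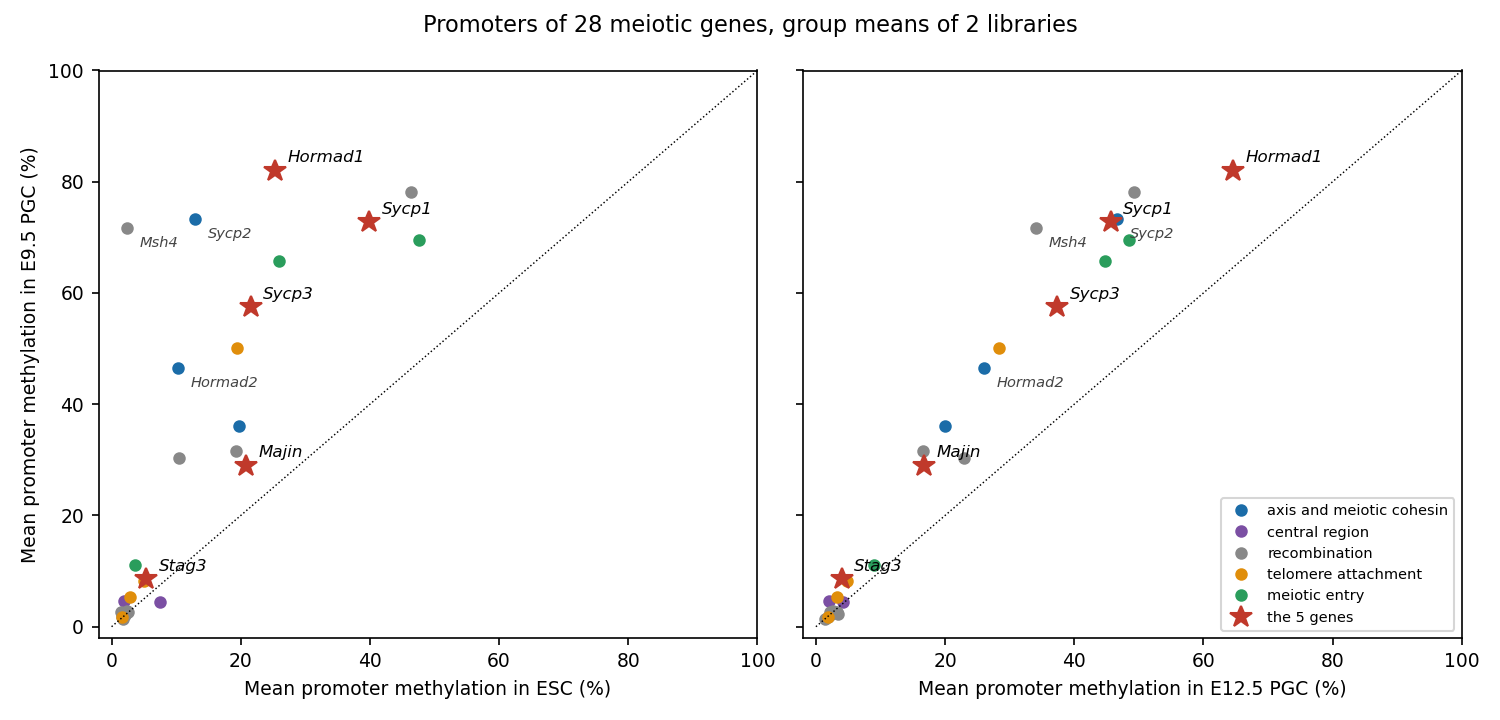
Mean promoter methylation (%, 2 libraries) in E9.5 PGCs (vertical axis) against ESCs (left) and E12.5 PGCs (right) for the 5 genes (red stars) and 23 other meiotic genes coloured by role; the dotted line marks equal levels. Hormad1 lies at 82.0% in E9.5 PGCs and 64.5% in E12.5 PGCs, Stag3 sits with the low promoters, and Msh4 and Sycp2 lie at 71.7% and 73.3% in E9.5 PGCs with 2.46% and 12.9% in ESCs.

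By the distance between group means over the 6 groups, the promoters nearest to Sycp1 among 18455 others were those of AU022751, Gm16171 and Rhox2-ps, at 1.86, 2.69 and 3.98 points. For Hormad1 they were Gm7341, Hspe1-ps5 and Pnma1, at 7.86, 8.35 and 9.31 points, and only these 3 lay within 10 points. Sycp3 was nearest to Sstr3, Ribc2 and Guk1, at 7.38, 7.84 and 7.90 points, with 20 promoters within 10 points, a distance that uses the ESC-PGCLC mean of its libraries at 12.5% and 90.0%. Majin was nearest to Hmga1b, Plcd1 and D430019H16Rik, at 1.91, 1.95 and 2.80 points, with 176 within 10 points. Stag3 was the least distinctive: 7434 promoters lay within 10 points, nearest Cnp at 0.890, Adamts15 at 1.36 and Atp6v0a1 at 1.39 points.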

How the data were processed

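RRBS was measured in 12 libraries. Per the submitters' processing notes and the study's methods, the authors aligned reads with Bismark 0.16.3 and Bowtie2 to mm10 and took the fraction of methylated reads. The coverage minimum and the promoter window are not given in the sources used here. The deposited values are fractions (0 to 1) per feature and library, printed here as percentages. Groups came from the sample labels. Levels were transformed to log2 odds with an offset of 0.01 and fitted with limma 3.58.1 over all features with a level in each library of a fit (8 libraries for PGCs with PGCLCs and for induction, 4 for pESCs with ESCs, 12 for PGCs with ESCs). P-values were adjusted by Benjamini-Hochberg over all features. The members, lists and tests were chosen with earlier results of these data known. All 5 members were described. Other meiotic genes were named by role, as the 2 highest and the lowest in E9.5 PGCs, and Msh5, Smc1b, Syce3, Gpc2 and Chpt1 after their values were seen. Islands and shores were taken if they overlapped the stretch from 2000 bp before to 500 bp after a gene start (GENCODE M21), and some reach beyond it. Alternatives changed the offset, transformation, centring, filters, samples and block. The scripts were tested on simulated data.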

Additional observations from a re-analysis of the deposited data

How the results depend on the processing

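Of 210 recounts of called member rows, or of members per promoter class, under an alternative, 176 stayed within 1.5 times of the reported count. A count of 0 that stayed at 0 is among these, as in the comparisons with nothing called. Of 530 recomputed promoter differences, 487 kept their direction and side of the threshold, 12 gained a call, 13 lost one and 18 changed sign. With libraries centred on their median the counts were 3 instead of 10 (E12.5 against E9.5 PGCs), 2 and 3 instead of 8 and 8 (ESC-PGCLCs and pESC-PGCLCs against E9.5 PGCs), 1 instead of 2 (ESC-PGCLCs against E12.5 PGCs), 5 instead of 2 and 4 instead of 1 (induction of ESCs and of pESCs), and 5 instead of 3 (E12.5 PGCs against ESCs). Centring turned the Stag3 and Majin promoters to 11.5 and 3.83 points in E12.5 against E9.5 PGCs, to 7.05 and 2.52 in ESC-PGCLCs with Sycp3 at 3.94, to 8.49 and 3.20 in pESC-PGCLCs, to -12.7 and -12.2 for induction of ESCs and to -19.2 and -14.2 in E9.5 PGCs against ESCs. For E12.5 PGCs and PGCLCs against E9.5 PGCs the centred sign of Stag3 was fixed, its E9.5 level of 8.51% being below each shift. Asking for 20 points gave 6 in E12.5 PGCs, 2 and 3 in the PGCLCs against E9.5 PGCs and 0 in ESC-PGCLCs against E12.5 PGCs. A fit of all 12 libraries gave 3 for ESC-PGCLCs against E9.5 and 1 against E12.5 PGCs, and fits of 4 libraries gave 11 for E9.5 and 1 for E12.5 PGCs against ESCs. An offset of 0.1 or untransformed levels gave 1 for induction of ESCs. Limits of 30% and 5% left 3 promoters methylated and 0 low throughout. Apart from the effect of these rules themselves, the cause was not tested.

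Leaving out 1 library at a time, where the lone library left in a group is assumed to vary like the others, moved the counts over 1 to 6 (E12.5 PGCs against ESCs), 1 to 7 (induction of ESCs), 1 to 3 (induction of pESCs), 2 to 6 (ESC-PGCLCs against E12.5 PGCs) and 0 to 1 (between PGCLCs). The Sycp3 promoter then ran from -44.9 to 32.6 points in ESC-PGCLCs against E9.5 PGCs and from -9.03 to 68.5 against ESCs. The Stag3 and Majin promoters ran from -1.39 to 1.56 and from -1.31 to 2.38 for induction of ESCs, and Stag3 from -2.55 to 0.0691 for pESCs. Adding a replicate block gave counts of 10, 8, 8, 2, 3, 2, 1 and 0, as reported, and 8 instead of 7 in E9.5 PGCs against ESCs. Same-numbered libraries deviated together with a correlation over 0.1 only between ESCs and pESCs (0.526) and between E9.5 PGCs and ESC-PGCLCs (0.184). Replicate 1 was higher than replicate 2 in 15 of 18 ESC rows and 14 of 18 pESC rows. The labels do not pair the libraries and the main fits used no block, so a shift shared by replicate number stays in their spread. Without read numbers, the depth behind a feature could not be weighed.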
